A study of Mus musculus with 6 samples.

Results

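The transcriptome of the mouse cerebral cortex 3 days after a photothrombotic stroke was compared with that of sham-operated cortex, gene by gene. Members were the genes with an FPKM (a read count scaled to transcript length and to the size of the library) of at least 1 in the sham or the day 3 library, which took in 12052 of the 15441 genes with a value in any of the 6 libraries of the time course. Male C57/BL6J mice of 6 to 8 weeks received the photosensitizing dye Rose Bengal, and light through the intact skull over the sensorimotor cortex then closed the vessels beneath it. Sham mice went through the same steps without light. Their cortex was taken at day 7 post-operation, so that the sham and the stroke tissue differed in the time since surgery as well as in the stroke. RNA of the whole ipsilateral cortex of 3 mice was pooled into 1 poly(A)-selected, strand-specific library for each group. There was therefore no replicate in either group, and all differences below are values of 2 libraries without a test.

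Brain tissue deprived of blood flow passes from an acute phase, in which cells die and resident cells raise alarm signals, to a sub-acute phase, in which microglia and blood-derived phagocytes clear debris. Astrocytes around the lesion then enlarge and form a border, and vessels and connective tissue are remodelled. Cell division of microglia, endothelial cells and astrocytes is known to be part of this phase.

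The day 3 library listed 92035 transcript events (transcription starts, transcription ends and splicing events, each with an FPKM) and the sham library 87466, with 13800 and 13267 genes listed, respectively. The tissue carried the markers of cortex in both libraries. The glutamatergic transporter gene Slc17a7 was at 303 FPKM in sham and 248 at day 3, the GABA-synthesizing enzyme gene Gad1 at 70.3 and 60.6, and the myelin gene Mbp at 1241 and 1205. The astrocytic Gfap and Aqp4, the microglial P2ry12 and the endothelial Pecam1 were listed in both libraries, with the values given below. The microglial Tmem119 and the endothelial Cldn5 were listed in neither.

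At day 3, 1029 genes (8.54% of the genes compared) were higher and 305 (2.53%) were lower, a gene being called when the log2 ratio of day 3 over sham, computed with 0.1 FPKM added to both, reached 1 or -1. The median log2 ratio was 0.03, and 72.7% of the genes lay within 0.5 of 0 on the log2 scale. Among the 11810 genes listed in both libraries, 844 were higher (7.15%) and 248 lower (2.1%), and the counts within gene lists below are to be read against these shares and those of all genes compared. A further 185 genes were not listed in sham and 57 were not listed at day 3, and these could not but be called. The limit of 1 FPKM was reached by 11763 genes at day 3 and by 11277 in sham. More genes thus entered through day 3 alone than through sham alone. Genes listed in both libraries, such as Lgals3 (0.386 FPKM in sham), were among the former. The shares and list counts over genes listed in both are therefore not free of this selection. Protein-coding genes made up 92.5% of the higher and 78.7% of the lower genes, against 95.0% of the genes compared. Calls were more frequent at low levels. Of the genes whose higher value was between 1 and 2 FPKM, 24.4% were higher at day 3, against 3.16% of those between 20 and 100 FPKM. Where starts and ends of a gene were listed in both libraries, both passed the threshold for 484 of 581 higher genes and for 100 of 157 lower genes. Starts and ends had opposite signs for 29 and 24 of them, respectively.

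**Figure D1:**
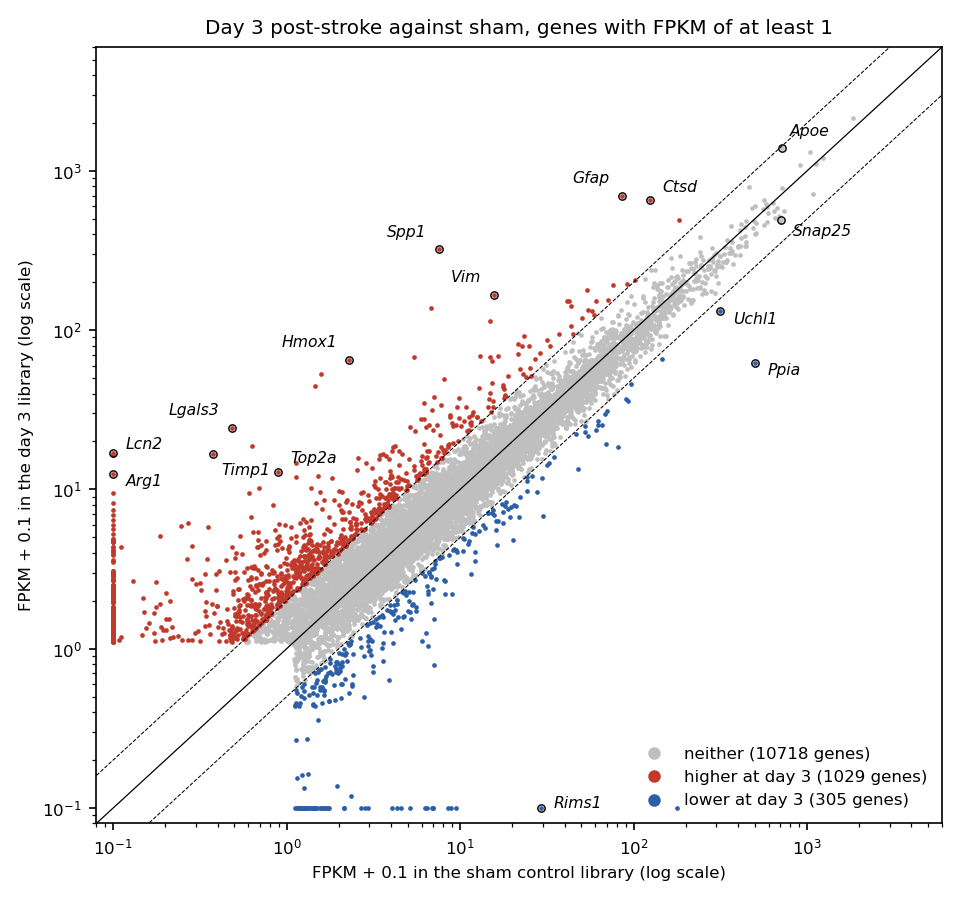
FPKM of each of the 12052 genes in the sham library (x axis) and the day 3 library (y axis), both with 0.1 added and on log scales; the solid line marks equal values, the dashed lines a log2 ratio of 1 and -1, and genes not listed in a library lie on its lowest edge. The 1029 higher genes (red) fan out above the diagonal at all levels, with Spp1, Gfap and Vim among the named genes at high day 3 values, while most of the 305 lower genes (blue) lie near the dashed line, apart from Ppia and the genes not listed at day 3.

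The 12 genes with the largest log2 ratios among those listed in both libraries were of mixed function. Lgals3 (galectin-3, a carbohydrate-binding protein of activated macrophages; chromosome 14, 47367751 to 47386160 of mm10) was at 0.386 FPKM in sham and 24.4 at day 3, a log2 ratio of 5.65. Timp1 (chromosome X, 20870166 to 20874735), an inhibitor of matrix metalloproteinases, was at 0.278 and 16.5 FPKM. Spp1 (osteopontin, chromosome 5, 104435118 to 104441050), a secreted matrix and adhesion protein, was at 7.42 and 323 FPKM. Their log2 ratios were 5.46 and 5.42. Plin2, the coat protein of lipid droplets, was at 1.37 and 44.6 FPKM (log2 ratio 4.93), Gpnmb, a glycoprotein of lipid-laden phagocytes, at 0.528 and 18.6 (4.90), and Hmox1, the heme-degrading oxygenase, at 2.20 and 65.2 (4.83). The other genes of this group were the chromosomal passenger gene Birc5 (5.30), the ribosomal protein gene Rpl29 (5.06), the leukocyte adaptor gene Fyb (4.77), the transcriptional co-regulator gene Sbno2 (4.59), the inhibitory leukocyte receptor gene Lilrb4a (4.51) and Osmr, the oncostatin M receptor gene (4.34). Rpl29 was at 1.48 FPKM in sham and 1.55, 52.7, 66.5 and 42.0 at days 1, 3, 14 and 28 and was not listed at day 7. Its level was low in sham and at day 1 and high at days 3, 14 and 28.

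In FPKM rather than ratio, the genes furthest above sham included abundant glial and phagocyte genes. Apoe, the lipid carrier of glia, was at 716 FPKM in sham and 1386 at day 3, which stayed short of the threshold (log2 ratio 0.95). At days 1, 7, 14 and 28 Apoe was at 287, 855, 3534 and 1212 FPKM, so its level moved up and down between libraries. Gfap, the intermediate filament of astrocytes, was at 85.8 and 698 FPKM (3.02), the lysosomal protease gene Ctsd at 124 and 655 (2.41) and Vim, a second intermediate filament gene, at 15.5 and 167 (3.42). For Ctsd the call rested on the transcript end, since the summed starts alone gave a log2 ratio of 0.20. The iron-storage gene Ftl1 rose from 183 to 489.98 FPKM (1.42), whereas its partner Fth1 was at 1849 and 2147 (0.22). The actin-binding Tmsb4x (465 and 792 FPKM), the cystatin gene Cst3 (1035 and 1321) and the elongation factor gene Eef1a1 (906 and 1084) had large differences in FPKM but log2 ratios of 0.77, 0.35 and 0.26. Cst3 also moved both ways, at 1125, 758, 1735 and 1226 FPKM at days 1, 7, 14 and 28.

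Of 33 mitotic genes compared, 29 had their highest FPKM of the 6 libraries at day 3, against 17.4% of all genes compared. The FPKM limit, set on sham and day 3, favours day 3 in such counts, and 12 of the 33 were not listed in sham. Of the 21 listed in both libraries, 18 were highest at day 3. Some of these too, such as Birc5 (0.0107 FPKM in sham and 4.26 at day 3), passed the limit only through day 3. Proliferating cells transcribe these genes in a burst before division. Their promoters are known to carry CCAAT boxes, bound by NF-Y, and a cell cycle homology region, bound by the MuvB complexes that silence them in resting cells. To show these sequences, the promoters of 4 mitotic genes are printed 5′ to 3′ from 250 bases before to 50 bases after the RefSeq start (GRCm38.p6), namely those with the highest day 3 FPKM among the higher mitotic genes that hold both motifs: Top2a at chr11:99024140-99024439 on the minus strand, Ube2c at chr2:164769679-164769978 on the plus strand, Racgap1 at chr15:99651607-99651906 on the minus strand and Prc1 at chr7:80294201-80294500 on the plus strand. Capitals mark the CCAAT box (CCAAT, or ATTGG on the other strand) and the cell cycle homology region (TTTGAA or TTCGAA, or TTCAAA on the other strand). Matches of the CCAAT box on opposite strands can overlap and were then counted separately.
Top2a: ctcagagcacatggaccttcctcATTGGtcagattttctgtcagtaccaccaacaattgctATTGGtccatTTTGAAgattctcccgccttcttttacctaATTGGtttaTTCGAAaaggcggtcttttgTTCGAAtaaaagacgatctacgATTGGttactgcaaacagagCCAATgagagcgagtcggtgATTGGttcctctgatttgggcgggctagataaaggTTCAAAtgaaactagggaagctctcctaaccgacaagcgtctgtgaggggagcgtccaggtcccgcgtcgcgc
Ube2c: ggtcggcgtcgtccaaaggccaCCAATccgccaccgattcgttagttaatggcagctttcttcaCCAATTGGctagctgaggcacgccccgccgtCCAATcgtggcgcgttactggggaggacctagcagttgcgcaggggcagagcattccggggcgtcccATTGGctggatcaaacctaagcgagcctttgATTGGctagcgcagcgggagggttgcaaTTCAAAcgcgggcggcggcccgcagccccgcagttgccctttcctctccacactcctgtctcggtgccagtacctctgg
Racgap1: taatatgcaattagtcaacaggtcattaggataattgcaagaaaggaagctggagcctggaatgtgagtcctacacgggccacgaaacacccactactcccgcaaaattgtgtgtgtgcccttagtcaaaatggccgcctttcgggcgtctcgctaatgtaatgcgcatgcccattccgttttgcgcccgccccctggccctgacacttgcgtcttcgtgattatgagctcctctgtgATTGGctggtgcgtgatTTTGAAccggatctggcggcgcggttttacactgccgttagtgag
Prc1: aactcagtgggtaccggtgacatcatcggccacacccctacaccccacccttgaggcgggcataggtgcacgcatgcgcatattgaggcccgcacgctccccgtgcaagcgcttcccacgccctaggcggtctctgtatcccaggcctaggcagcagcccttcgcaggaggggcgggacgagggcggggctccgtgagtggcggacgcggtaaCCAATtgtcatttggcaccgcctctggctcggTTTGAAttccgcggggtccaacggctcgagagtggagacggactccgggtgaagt

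The window of Top2a held 6 matches of the CCAAT box and 4 of the cell cycle homology region, that of Ube2c 6 and 1, and those of Racgap1 and Prc1 1 of each. RefSeq gave 25 promoters for 23 of the 27 mitotic genes that were higher at day 3. Both motifs were found in 20 of these 25 windows (80%), against 7.52% of all 32851 promoters of the same length. A CCAAT box was found in 84% and a cell cycle homology region in 84%, against 37.4% and 19.2% of all promoters. The windows of Birc5, Nuf2 and Melk held neither motif, that of Ccnb1 only CCAAT boxes and that of Ndc80 only the cell cycle homology region. For 11 promoters of the higher DNA replication genes the shares were 81.8% for the CCAAT box and 18.2% for the cell cycle homology region, the latter near the share of all promoters. A match here is a run of letters in the window, which shows neither binding nor a cause, and a window without one says nothing of the factor.

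Of 46 mitotic genes listed for this purpose, 33 passed the FPKM limit, 27 were higher and none was lower at day 3 (81.8%, against 8.54% of all genes compared). Of these 27, 12 were not listed in sham and so could only be called higher. Among the 21 mitotic genes listed in both libraries, 15 were higher, with a median log2 ratio of 1.58 over the 21. The 21 included Top2a, Birc5 and Cdk1, which were under 1 FPKM in sham and passed the limit only through day 3. Most mitotic genes were expressed at a few FPKM, a range in which calls were frequent among all genes as well (24.4% and 14% higher between 1 and 2 and between 2 and 5 FPKM, respectively). Top2a, the DNA topoisomerase that untangles sister chromatids, was at 0.786 FPKM in sham and 1.64, 12.8, 4.07, 1.87 and 0.549 at days 1, 3, 7, 14 and 28 (log2 ratio at day 3 3.87). The day 3 library was thus far above each of the others. The ubiquitin-conjugating gene Ube2c, which drives exit from mitosis, was not listed in sham and was at 0.788, 6.80, 2.69, 0.617 and 0.309 FPKM at days 1, 3, 7, 14 and 28. Birc5 (survivin), which guides chromosome segregation, was at 0.0107 FPKM in sham and 0.782, 4.26 and 3.47 at days 1, 3 and 7. The mitotic cyclin gene Ccnb1 was listed only at day 3 (3.84 FPKM) and day 7 (0.730 FPKM), and its sister Ccnb2, not listed in sham, was at 2.30 and 1.61 FPKM on those days. Both cyclins partner the kinase Cdk1, which was at 0.656 FPKM in sham and 0.499, 2.17 and 0.760 at days 1, 3 and 7. Nuf2, a kinetochore gene, was not listed in sham and was at 0.417, 4.78 and 1.15 FPKM at days 1, 3 and 7. Mki67, the Ki-67 marker of cycling cells, was not listed in sham or at day 14 and was at 0.402, 2.64, 2.47 and 0.382 FPKM at days 1, 3, 7 and 28. Day 3 and day 7 lay close together for Mki67 and Birc5, but apart for the cyclins, Nuf2 and Top2a.

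Of the 27 higher mitotic genes, 26 had the highest FPKM of the 6 libraries at day 3 and 1, the kinase gene Aurka, at day 7 (1.43 FPKM at day 3, 1.63 at day 7). Among all 1029 genes higher at day 3, 454 (44.1%) had their highest FPKM at day 3, and 299 had it at day 7. The checkpoint gene Bub1b ran the other way, with 2.46 FPKM in sham and 1.43 at day 3, short of the threshold, and only 0.52 of its value lay inside its annotated span.

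**Figure D2:**
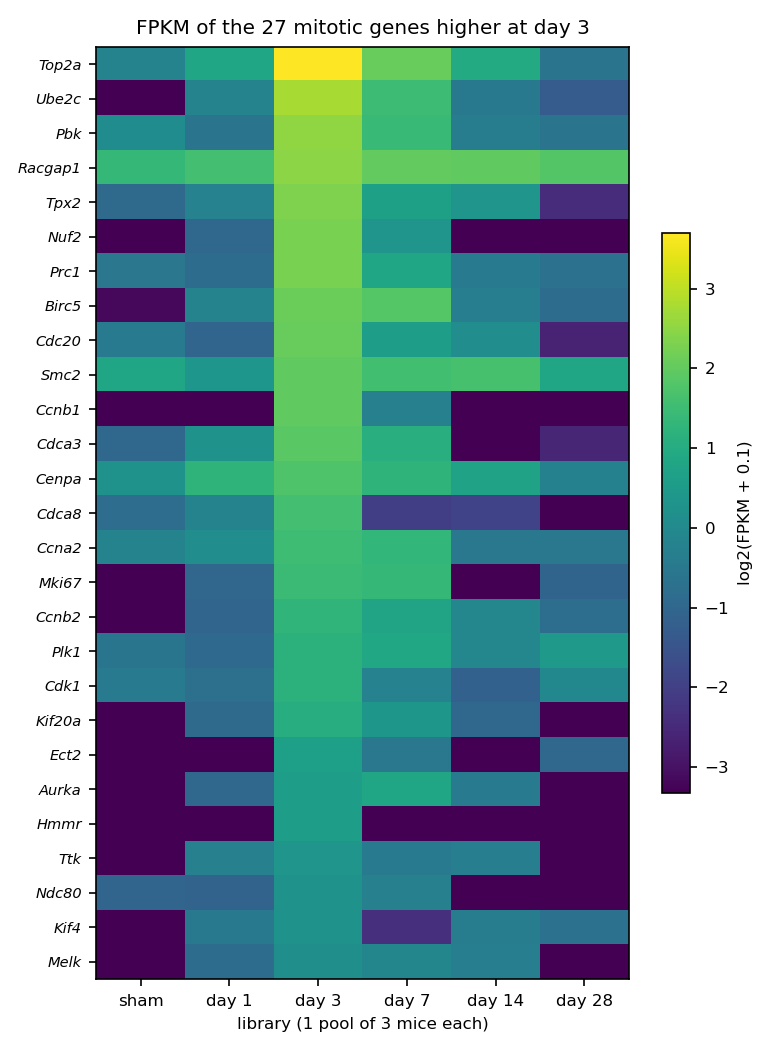
Colour gives log2(FPKM + 0.1) of the 27 mitotic genes that were higher at day 3 (rows, ordered by day 3 FPKM) in the sham library and the 5 post-stroke libraries (columns); the darkest colour stands for a gene not listed. The day 3 column is the brightest in 26 of 27 rows, and day 7 is second in most.

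DNA replication genes moved less. Of 27 members that passed the limit, 11 were higher (40.7%, against 8.54% of all genes compared) and 1 was lower. The median log2 ratio was 0.79. Of the 11, 1 was not listed in sham and could only be called higher. Mcm2, Mcm5, Rrm2, Cdc45, Tyms and Tk1 were under 1 FPKM in sham and passed the limit only through day 3. The 6 subunits of the MCM helicase, which unwinds replication origins, were split by the threshold. Mcm6 was at 1.25 FPKM in sham and 5.06 at day 3 (log2 ratio 1.93), Mcm2 at 0.590 and 2.44 (1.88), Mcm5 at 0.983 and 3.35 (1.67) and Mcm3 at 1.39 and 3.30 (1.19), while Mcm4 (2.09 and 3.70, 0.79) and Mcm7 (4.29 and 6.2, 0.52) stayed short of it. Rrm2, the regulated subunit of ribonucleotide reductase, was at 0.803 FPKM in sham and 0.901, 5.93 and 2.58 at days 1, 3 and 7 (2.74). Cdc45, a component of the active helicase, was at 0.0536 and 1.25 FPKM (3.14), and Pole, a replicative polymerase, was not listed in sham and at 1.01 FPKM at day 3. The nucleotide-supply genes Tyms (0.0907 and 1.03 FPKM) and Tk1 (0.298 and 1.74) were higher by log2 ratios of 2.57 and 2.21. E2f1, a transcription factor of S phase, was the 1 lower member, at 3.49 FPKM in sham and 1.48 at day 3 (-1.18), and the S-phase cyclin Ccne1 was at 5.82 and 4.46 FPKM (-0.38). The S-phase gene Pcna, whose product clamps the polymerase to DNA, was the most abundant member, at 23.4 and 34.7 FPKM (0.56).

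The monocyte and macrophage genes had a median log2 ratio of 3.01. These cells enter the lesion from the blood, while microglia are resident. All 18 of the monocyte and macrophage genes that passed the limit, of 26 listed, were higher, against 8.54% of all genes compared. The 12 of them listed in both libraries had a median log2 ratio of 2.30. The 12 included Ms4a6d, Ms4a6c, Clec4n and Ms4a7, which were under 1 FPKM in sham and passed the limit only through day 3. Lyz2, the lysozyme gene of myeloid cells, was at 6.73 FPKM in sham and 11, 137, 357 and 196 at days 1, 3, 7 and 14 (log2 ratio at day 3 4.32). The Fc receptor genes Fcgr3 (7.69 and 33.9 FPKM, 2.12), Fcgr2b (1.41 and 12, 3.00) and Fcgr1 (1.25 and 5.73, 2.11), which bind antibody-coated particles, were higher, and Fcgr4 was not listed in sham and at 2.95 FPKM at day 3. The Ms4a6 family members Ms4a6d (0.524 and 6.62 FPKM, 3.43) and Ms4a6c (0.345 and 3.49, 3.01) were higher as well. The smallest log2 ratios of the list were those of Clec4n (dectin-2; 0.510 and 1.33 FPKM, 1.23) and Ms4a7 (0.494 and 1.44, 1.38). In bulk tissue, more cells of a type and more RNA per cell cannot be told apart, and the same holds for fewer cells and less RNA per cell. Members of the list such as Fcgr3 and Lyz2 were already listed in sham cortex. Whether the transcripts of the list came from blood-derived or from resident cells was not tested.

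Arg1, the arginase of alternatively activated macrophages (chromosome 10, 24915221 to 24927484), had the narrowest time course of these genes. It was not listed in sham, at 1.51, 12.5 and 1.11 FPKM at days 1, 3 and 7, and was not listed at days 14 and 28. The scavenger receptor gene Msr1 was not listed in sham and was at 0.589, 3.96, 4.02 and 0.192 FPKM at days 1, 3, 7 and 14. Cd5l, a secreted macrophage protein, was not listed in sham or at day 1, was at 6.29 FPKM at day 3 and was higher at day 7 (13.9). The monocyte-defining Ccr2 stayed under the FPKM limit in all libraries, with 0.140 FPKM at day 3 and 0.199 at day 1.

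Genes of the disease-associated phagocyte state, which microglia and macrophages share around dying cells, were at or above their sham level in all 25 members compared. Of the 25, 20 were higher (80%, against 8.54% of all genes compared), and the median log2 ratio was 1.66. Beside Lgals3, Spp1 and Gpnmb, the beta-glucan receptor gene Clec7a was not listed in sham and was at 2.20 FPKM at day 3 and 12.6 at day 7. Lgals3 and Gpnmb, under 1 FPKM in sham, and Clec7a passed the limit only through day 3. The microglial lipid receptor gene Trem2 was at 9.49 FPKM in sham and 32.6 at day 3 (1.77), and its adaptor Tyrobp at 21.5 and 82.0 (1.93). The smallest ratios of the list were those of the TAM receptor Axl (11.9 and 15.2 FPKM, 0.34) and the fatty acid carrier Fabp5 (60.8 and 97.8, 0.69). Most were not at their highest at day 3, since 16 of the 20 higher members had their highest FPKM at day 7 and 1 at day 3.

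Of the resting microglia genes, none of the 13 members compared was lower and 6 were higher (46.2%, against 8.54% of all genes compared). The median log2 ratio of the 13 was 0.77. P2ry12, the purinergic receptor that defines resting microglia, was at 18 FPKM in sham and 7.01, 21.7 and 17.7 at days 1, 3 and 7, short of the threshold at day 3 (0.26). The colony-stimulating factor receptor gene Csf1r, on which microglia depend, was at 23.9 and 50.4 FPKM (1.07), the cytoskeletal marker Aif1 (Iba1) at 4.43 and 11.6 (1.37), the Fc receptor-like gene Fcrls at 15.2 and 63.9 (2.06), and the nucleotide receptor gene P2ry6, which triggers phagocytosis, at 0.752 and 4.39 (2.40). P2ry12 and Fcrls, both genes of resident microglia, thus differed in ratio. P2ry6, under 1 FPKM in sham, passed the limit only through day 3.

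Few genes of other blood cells passed the FPKM limit. Of 15 neutrophil genes, 2 passed the limit, the growth factor receptor Csf3r (1.30 and 4.03 FPKM) and the alarmin S100a8. S100a8 was at 0.0729 FPKM in sham and 6.18, 1.59, 0.682 and 3.84 at days 1, 3, 7 and 14, and its partner S100a9, at 10.1 FPKM at day 1, was not listed at day 3. Of 17 lymphocyte genes, Cd4 alone passed, at 2.56 FPKM in sham and 1.49 at day 3. The T cell receptor component Cd3e was listed in neither library, and the B cell receptor component Cd79a was at 0.681 FPKM at day 3 and not listed in sham.

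Reactive astrocyte genes were higher in 25 of the 31 members compared (80.6%, against 8.54% of all genes compared) and lower in none. The median log2 ratio was 2.35, and 1.88 over the 26 listed in both libraries. Of the 25, 5 were not listed in sham and could only be called higher. The 26 included Osmr and Cd44, which were under 1 FPKM in sham and passed the limit only through day 3. Beside Gfap and Vim, Serpina3n, a secreted protease inhibitor, was at 5.30 FPKM in sham and 37.5, 68.0 and 38.8 at days 1, 3 and 7 (log2 ratio 3.66). Cd44, a hyaluronan receptor, was at 0.582 and 5.33 FPKM (2.99), and Osmr at 0.0306 and 2.55 (4.34). Lcn2, the siderophore-binding lipocalin of reactive astrocytes, and Tgm1, a transglutaminase, were not listed in sham and stood at 16.9 and 9.38 FPKM at day 3. Both were listed at day 1 already, with 15.5 FPKM for Lcn2 and 6.13 for Tgm1. The pentraxin gene Ptx3, not listed in sham, was past its highest level, with 9.83 FPKM at day 1 and 1.92 at day 3. The members with the smallest ratios were the sphingosine kinase gene Sphk1 (2.19 and 1.55 FPKM, -0.48) and the elastic fibre gene Fbln5 (1.53 and 1.67, 0.12).

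In contrast, none of 20 homeostatic astrocyte genes passed the threshold in either direction, and the median log2 ratio was 0.25. Aqp4, the water channel of astrocyte endfeet, came nearest, at 27 FPKM in sham and 26, 50.6 and 35.2 at days 1, 3 and 7 (0.90). The inwardly rectifying potassium channel gene Kcnj10 (34.2 and 49.7 FPKM, 0.54) and the proteoglycan gene Gpc5 (11.9 and 19.3, 0.69) were above sham, and the neurotensin receptor gene Ntsr2 (82.9 and 52.4, -0.66) and the growth factor receptor gene Fgfr3 (24.8 and 17.1, -0.54) were below it. The glutamate transporter genes Slc1a2 (199.9 and 234 FPKM) and Slc1a3 (144 and 176) and the glutamine synthetase gene Glul (485 and 584) kept log2 ratios of 0.23, 0.28 and 0.27.

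**Figure D3:**
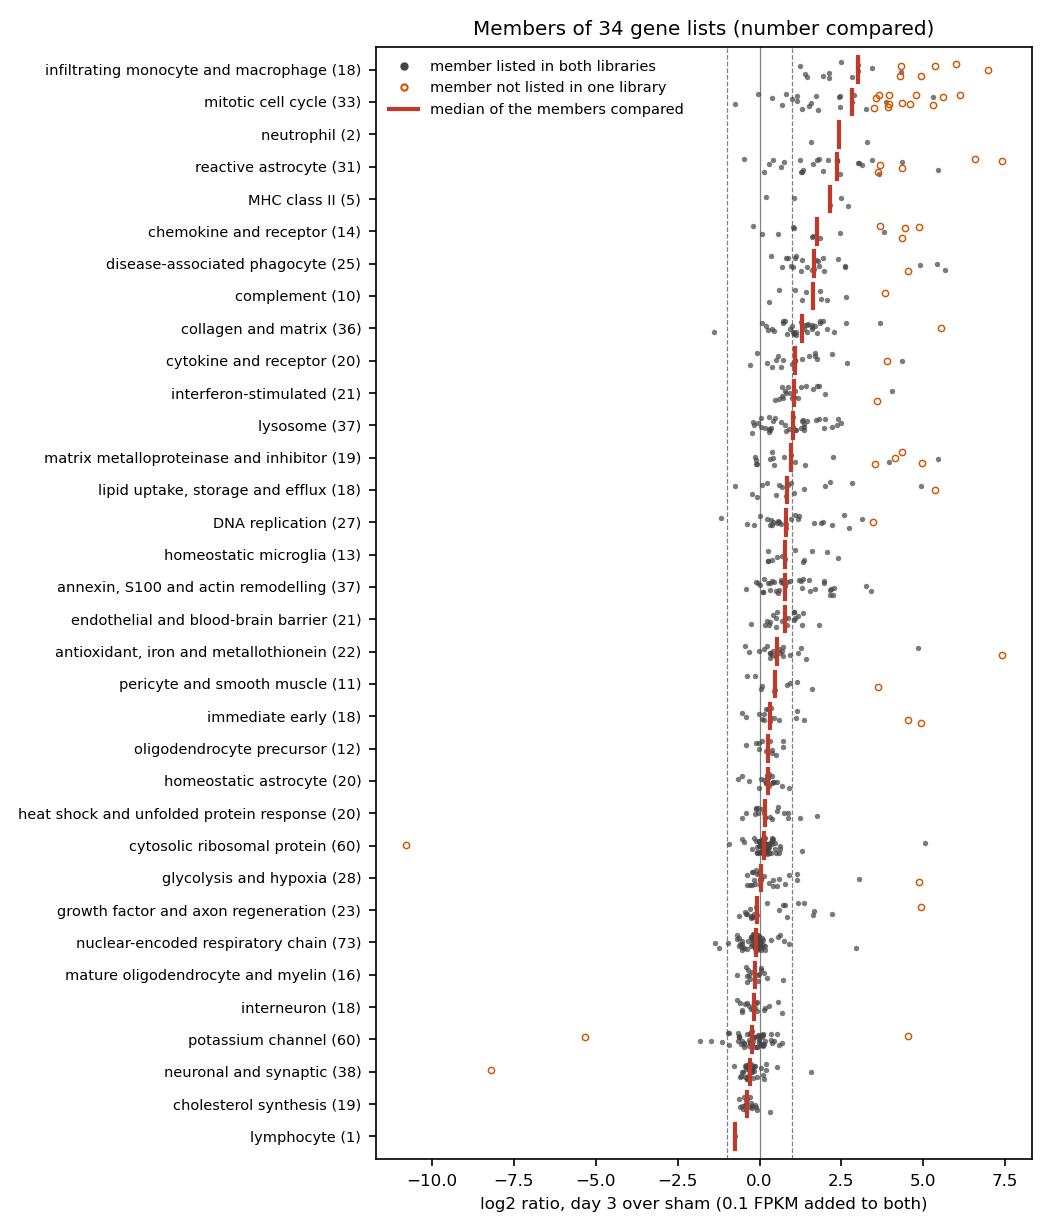
Each point is a gene of 1 of 34 lists, at its log2 ratio of day 3 over sham with 0.1 FPKM added to both (x axis); open circles are genes not listed in 1 of the libraries, whose position depends on the amount added, the red bars are list medians and the dashed lines mark 1 and -1. The medians of 12 lists lie at or above 1, 8 lie under 0 and none reaches -1.

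Collagens and matrix proteins were higher in 24 of 36 members compared (66.7%, against 8.54% of all genes compared) and lower in 1. The median log2 ratio was 1.31. The fibrillar collagen genes of connective tissue led among those listed in both libraries. Col3a1 was at 1.04 FPKM in sham and 0.639, 14.6, 21.6 and 12.8 at days 1, 3, 7 and 14 (3.69), Col1a1 at 2.46 and 15.7 in sham and at day 3 (2.62) and Col1a2 at 6.90 and 23.4 (1.75). At day 1 the latter 2 were at 3.07 and 5.70 FPKM, near sham. Lox, which cross-links collagen, was not listed in sham and was at 1.97, 4.55 and 2.99 FPKM at days 1, 3 and 7. Fibronectin (Fn1) was at 9.76 FPKM in sham and 6.97, 37.7 and 28.0 at days 1, 3 and 7 (1.94), and Tgfbi, a matrix protein induced by transforming growth factor beta, was at 1.20 and 6.16 (2.27). The basement membrane collagens Col4a1 (3.92 and 12.1 FPKM, 1.60) and Col4a2 (5.0 and 10.5, 1.06) were higher too. Lama2, a laminin chain of vessels, was lower (2.30 and 0.821 FPKM, -1.38), and the basement membrane gene Nid2 was level (2.05 and 2.17, 0.08).

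Among matrix metalloproteinases, plasminogen activators and their inhibitors, 9 of 19 members were higher and none lower (8.54% of all genes were higher). Of the 9, 4 were not listed in sham. Over the 15 members listed in both libraries, 5 were higher and the median log2 ratio was 0.43, against 0.97 over all 19. Timp1 had reached 16.2 FPKM at day 1, stayed at 16.5 at day 3 and was at 5.33 at day 7. Mmp12, the macrophage elastase, was not listed in sham and was at 0.647, 3.00 and 10.5 FPKM at days 1, 3 and 7, and Mmp2, a gelatinase, likewise not listed in sham, was at 0.728, 1.94 and 2.77 FPKM. The urokinase gene Plau was at 0.783 and 4.09 FPKM in sham and at day 3 (2.25), and its receptor gene Plaur was not listed in sham and at 1.67 FPKM at day 3. The membrane-type proteinase genes Mmp24 (9.56 and 8.67 FPKM, -0.14) and Mmp17 (21.8 and 20.1, -0.11), the most strongly expressed of the family in sham, stayed within the threshold.

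Endothelial genes were shifted by a smaller amount. Of 21 members compared, 8 were higher (38.1%, against 8.54% of all genes compared) and none lower. The median log2 ratio was 0.00, 0.77 and 0.03 at days 1, 3 and 7. The highest FPKM of the 6 libraries was at day 3 for 15 of the 21, against 17.4% of all genes compared. The junction gene Pecam1 (CD31) was at 3.33 FPKM in sham and 3.64, 7.00 and 2.55 at days 1, 3 and 7 (1.05). Von Willebrand factor (Vwf) was at 1.29, 1.02, 3.30 and 1.74 FPKM in the same libraries (1.29), and the co-receptor gene Eng was at 2.84, 2.85, 6.53 and 2.86 (1.17). Plvap, a protein of leaky vessels absent from the mature blood-brain barrier, was at 1.22, 3.42, 4.52 and 1.10 FPKM (1.80). Ly6c1, an endothelial surface protein, was at 11.6 FPKM in sham and 29.4 at day 3 (1.33). The lipid transporter of the barrier, Mfsd2a, was at 9.0 FPKM in sham and 15.2 and 7.47 at days 1 and 3 (-0.27), and the peptide gene Apln at 9.06 and 10.1 FPKM (0.16). Among pericyte and smooth muscle genes, 3 of 11 were higher (27.3%, against 8.54% of all genes compared). They were Tagln (2.07 and 6.46 FPKM, 1.60), Notch3 (0.801 and 1.91, 1.16) and Abcc9, which was not listed in sham and at 1.13 FPKM at day 3. The smooth muscle actin gene Acta2 came next (3.95 and 7.61 FPKM, 0.93), and Vtn was below sham (26.5 and 20.4, -0.38). Notch3 and Abcc9 passed the limit only through day 3. Both lay between 1 and 2 FPKM at day 3, where 24.4% of all genes were higher. The call of Notch3 was lost with 1 FPKM added (0.69).

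**Figure D4:**
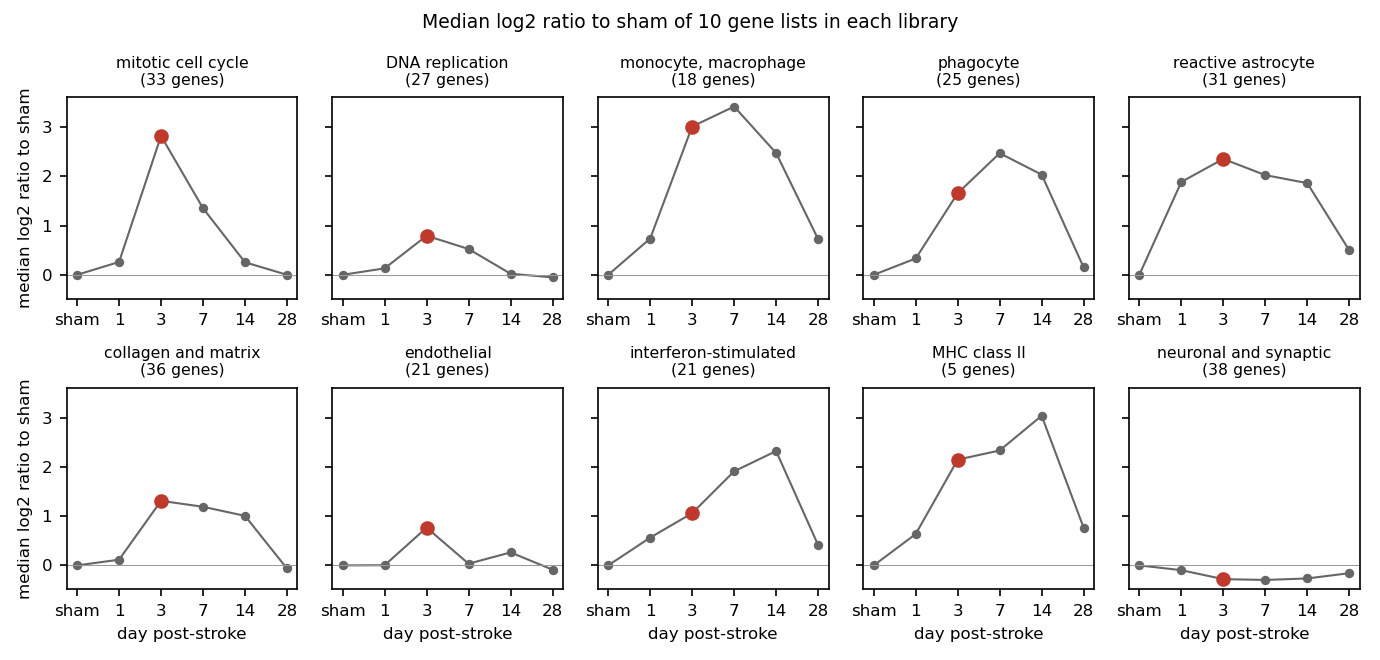
Median log2 ratio to sham (y axis) of 10 gene lists in each library (x axis, day post-stroke, sham set to 0), over the members compared at day 3, with day 3 in red. All points of a panel share the sham library. The members passed an FPKM limit on sham and day 3, which favours day 3 over the later days. The mitotic, replication, reactive astrocyte, matrix and endothelial lists have their highest median at day 3 (the summed FPKM of the matrix list is higher at day 7, 552 against 479), the phagocyte and the monocyte and macrophage lists at day 7, and the interferon-stimulated and MHC class II lists at day 14.

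Of 14 chemokine and receptor genes, which attract leukocytes, 11 were higher at day 3 and none lower, against 8.54% higher among all genes. Of the 11, 4 were not listed in sham, and 7 of the 10 genes listed in both libraries were higher. The summed FPKM of the list was 207 in sham and 214 at day 3, and with a limit of 5 FPKM its median log2 ratio went from 1.74 to 0.07. The monocyte attractant gene Ccl2 was not listed in sham and was at 5.24, 2.06 and 0.594 FPKM at days 1, 3 and 7. The related Ccl12 was at 0.602 FPKM in sham and 12.7, 3.78 and 4.27 at days 1, 3 and 7 (2.47). These 2 were below their day 1 level by day 3, and the microglial attractants Ccl3 (3.78 and 2.84 FPKM at days 1 and 3) and Ccl4 (2.53 and 1.93), both not listed in sham, followed the same order. Cxcl5, which attracts neutrophils, was at 0.0480 FPKM in sham and 1.98 at day 3 (3.81). Cx3cl1, the neuronal ligand of microglia, was level at 149.8 and 129.9 FPKM (-0.21).

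Among cytokine genes and their receptors, 11 of 20 were higher (55%, against 8.54% of all genes compared), 1 of them not listed in sham. The inflammatory cytokine genes Il1b (0.626 FPKM at day 3) and Il1a (0.662) stayed under 1 FPKM, and Tnf and Il6 were listed in neither library. The receptors were more abundant, with the interleukin-1 receptor gene Il1r1 not listed in sham and at 1.38 FPKM at day 3, the tumour necrosis factor receptor genes Tnfrsf1b at 0.588 and 4.26 FPKM (2.66) and Tnfrsf1a at 4.33 and 14.1 (1.68), and Tnfrsf12a, the TWEAK receptor gene, at 1.29 and 6.36 (2.22). Transforming growth factor beta 1 (Tgfb1) was at 2.02 and 7.07 FPKM (1.76), and its receptor Tgfbr2 at 2.5 and 8.2 (1.68). Il18 (8.21 and 6.66 FPKM, -0.30) and the leukemia inhibitory factor receptor gene Lifr (3.41 and 3.25, -0.07) had the smallest ratios.

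Most genes of complement and MHC class II and 11 of 21 interferon-stimulated genes were higher at day 3, against 8.54% of all genes compared. Many had higher FPKM still at later days. Of 10 complement genes compared, 8 were higher and none lower. C1qa, C1qb and C1qc, which together form the recognition protein of the classical pathway, were at 42.5, 41.4 and 16.5 FPKM in sham, at 152, 152 and 68.7 at day 3 and at 259, 219 and 117 at day 7. Their log2 ratios at day 3 were 1.83, 1.87 and 2.05. C3, the central component, was not listed in sham or at day 1 and was at 1.32, 1.12 and 8.25 FPKM at days 3, 7 and 14. The integrin chain Itgb2, part of a complement receptor, was at 1.47 and 9.60 FPKM (2.63). Of 5 MHC class II genes compared, 4 were higher, with H2-Eb1 at 0.752 and 5.46 FPKM (2.71), H2-Ab1 at 0.782 and 4.82 (2.48) and H2-Aa at 1.16 and 5.47 (2.15), and 3 of these 4 were highest at day 14. H2-Eb1 and H2-Ab1 were under 1 FPKM in sham and passed the limit only through day 3. Interferon-stimulated genes were higher in 11 of 21 members, with a median log2 ratio of 1.06, 1.91 and 2.32 at days 3, 7 and 14. Ifi27l2a, a mitochondrial interferon target, was at 0.254 FPKM in sham and 1.60, 5.74, 13.7 and 15.9 at days 1, 3, 7 and 14 (4.04). Bst2 (tetherin) was at 3.10 and 10.6 FPKM (1.74), and Oas1a, an RNA sensor, was not listed in sham and at 1.09 FPKM at day 3. None of the 11 was highest at day 3 and 10 were highest at day 14, where Usp18, for example, was at 6.14 FPKM against 0.55 in sham and 1.25 at day 3. Ifi27l2a and Usp18, under 1 FPKM in sham, and Oas1a passed the limit only through day 3.

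Lysosomal genes, which digest engulfed material, were higher in 19 of 37 members and lower in none (median log2 ratio 1.02). All 37 were listed in both libraries, and 7.15% of all genes listed in both were higher. Ctsh, an aminopeptidase, was at 6.11 FPKM in sham and 6.69, 34.8 and 28.6 at days 1, 3 and 7 (2.49). Beside Ctsd, the glycosidase gene Gusb was at 2.78 and 14.6 FPKM in sham and at day 3 (2.35) and the progranulin gene Grn at 14.7 and 68.1 (2.20). Of the proton pump genes that acidify the lysosome, Atp6v0d1 (97.8 and 84.6 FPKM, -0.21) and Atp6v1a (99.3 and 87.7, -0.18) stayed within the threshold, while the accessory subunit gene Atp6ap1 was higher (44.4 and 94.6, 1.09). The calcium channel gene Mcoln1 was at 15.8 and 13.4 FPKM (-0.24).

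Genes for lipid uptake, storage and efflux were higher in 7 of 18 members, against 8.54% of all genes compared. Plin2 was at 1.37 FPKM in sham and 5.34, 44.6, 44.7 and 11.9 at days 1, 3, 7 and 14. The fatty acid translocase Cd36 was at 0.452 and 3.82 FPKM in sham and at day 3 (2.83), and Abca1, which exports cholesterol, at 3.00 and 13.6 (2.15). The muscle and neuron carrier Fabp3 was below sham at 66.9 and 39.7 FPKM (-0.75). Of 19 genes of cholesterol synthesis, 18 lay below sham, although none passed the threshold (median -0.37, against 0.03 over all genes compared). The member furthest above sham was Hsd17b7 (3.54 and 4.43 FPKM, 0.32).

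In the antioxidant and iron list, 5 of 22 members were higher (22.7%, against 8.54% of all genes compared). Of the 5, Lcn2 was not listed in sham and could only be called higher. Among the 21 members listed in both libraries, 4 were higher (19%, against 7.15% of all genes listed in both). Hmox1 was at 2.20 FPKM in sham and 27, 65.2, 19.7, 8.60 and 3.63 at days 1, 3, 7, 14 and 28, so its day 3 level stood above all others. The ferroxidase gene Cp was at 4.65 and 11.4 FPKM in sham and at day 3 (1.27) and the phagosomal iron transporter gene Slc11a1 at 1.72 and 4.0 (1.17), while the transferrin receptor gene Tfrc was below sham at 23.8 and 17.6 (-0.43). The metallothionein genes Mt1 (241, 653 and 386 FPKM in sham and at days 1 and 3) and Mt2 (126, 475 and 239) were above sham by less than the threshold at day 3, and lower than at day 1. Heat shock and unfolded protein response genes were near sham (median log2 ratio 0.16), apart from the small heat shock gene Hspb1 (3.99, 23.9 and 9.43 FPKM in sham and at days 1 and 3, 1.22) and the disulfide isomerase gene Pdia6 (12.8, 41.3 and 43.2, 1.74). Annexin, S100 and actin-remodelling genes were higher in 16 of 37 members (43.2%, against 8.54% of all genes compared). Among them were the actin-capping Capg (1.03 and 11.8 FPKM, 3.40), the calcium-binding S100a4 (0.739 and 7.92, 3.26), the myosin light chain gene Myl12a (5.01 and 24.7, 2.28) and the platelet and leukocyte gene Plek (3.37 and 16.4, 2.24). S100a4 was under 1 FPKM in sham and passed the limit only through day 3. Abundant actin regulators of all cells, such as Cfl1 (588 and 594 FPKM, 0.02), were level. The leukocyte actin-binding genes Coro1a (53.0 and 48.7 FPKM, -0.12) and Lcp1 (2.99 and 2.23, -0.40) had the smallest ratios of the list.

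**Figure D5:**
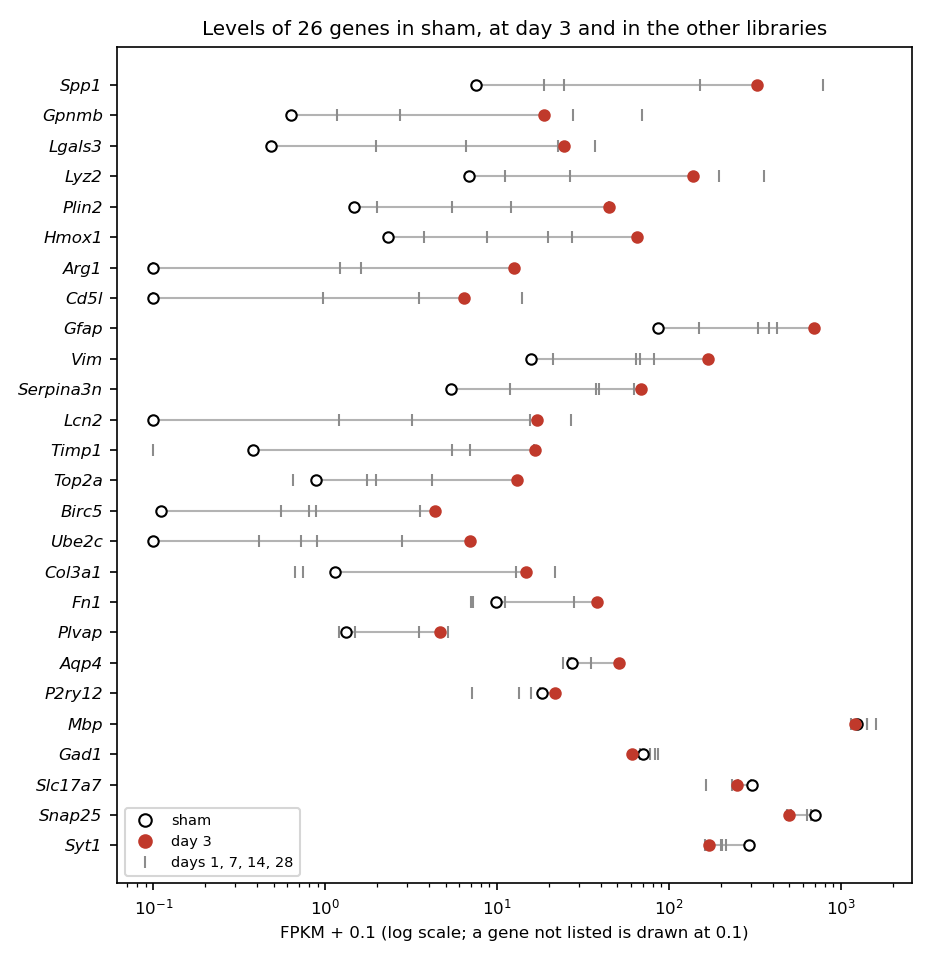
FPKM plus 0.1 (x axis, log scale) of 26 named genes in sham (open circles), at day 3 (red) and in the 4 other post-stroke libraries (grey ticks); a gene not listed is drawn at 0.1. The day 3 point of Arg1, Hmox1, Gfap and Top2a lies to the right of all other libraries, those of Spp1, Gpnmb and Lyz2 lie to the left of at least 1 other, and the neuronal genes Snap25 and Syt1 lie to the left of sham.

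Neuronal transcripts were mostly below sham by a small amount. Of the 37 neuronal and synaptic genes listed in both libraries, 30 had a lower FPKM at day 3, with a median log2 ratio of -0.27, but none of the 37 passed the threshold downward. Abundant genes as a whole also lay slightly below sham. Their median log2 ratio was -0.07 where the higher value was 20 to 100 FPKM and -0.11 where it was 100 or more. Syt1, the calcium sensor of transmitter release, was at 293 FPKM in sham and 204, 171, 199, 161 and 214 at days 1, 3, 7, 14 and 28 (log2 ratio at day 3 -0.78). Snap25, a SNARE protein of synaptic vesicle fusion, was at 706, 670, 495, 512, 486 and 629 FPKM in the same order (-0.51), and Nrgn, a postsynaptic calmodulin-binding protein, was at 698 in sham and 483 at day 3 (-0.53). Gria2, an AMPA receptor subunit, was at 119 and 78.5 FPKM (-0.60). Grin2a, an NMDA receptor subunit, was the 1 higher member, at 3.28 FPKM in sham and 7.15, 9.97, 10.8 and 12.3 at days 1, 3, 7 and 28, without being listed at day 14, so that sham and day 14 stood below the others. Map2, the dendritic microtubule protein, was at 113 and 164 FPKM (0.53). Interneuron genes were nearer to sham (18 compared, none called, median -0.18), with Reln at 8.36 and 5.13 FPKM (-0.69), Npy at 115 and 79.3 (-0.54) and Pvalb at 47.5 and 37.8 (-0.33).

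Of 60 potassium channel genes compared, 4 were lower and 1 was higher, against 2.53% lower and 8.54% higher among all genes. Of these, 1 lower and the higher gene were listed in only 1 of the 2 libraries. The G protein-gated channel gene Kcnj3 was at 18.2 FPKM in sham and 13.6, 8.19, 13.5, 14.6 and 17.6 at days 1, 3, 7, 14 and 28 (-1.14), the lowest at day 3. Kcnk4, a mechanosensitive leak channel, was at 5.18 and 1.78 FPKM (-1.49) by the value used here, but its summed transcript ends alone gave a log2 ratio of 1.02. Kcnu1 was at 1.49 and 0.354 FPKM (-1.81, a call lost with 1 FPKM added), and Kcnk9, at 3.96 FPKM in sham and 2.81 and 1.51 at days 7 and 14, was not listed at days 1, 3 and 28. The higher member was Kcnk6, not listed in sham and at 2.23 FPKM at day 3. Among immediate early genes, 5 of 18 were higher (27.8%, against 8.54% of all genes compared). The injury-induced factor genes Atf3 (2.94 FPKM) and Fosl1 (2.19) were not listed in sham and could only be called higher. Arc, a gene of synaptic plasticity, was at 17.6 and 44.9 FPKM (1.34). The day 1 peaks of Fosb (1.05, 11.9 and 1.33 FPKM in sham and at days 1 and 3) and Nptx2 (16, 81.2 and 15.9) were over, with day 3 near sham.

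Mature oligodendrocyte genes (16 compared) and oligodendrocyte precursor genes (12 compared) had no member past the threshold, with medians of -0.14 and 0.26. The myelin surface gene Mog was at 44.9 FPKM in sham and 28.0 at day 3 (-0.68). The other way round, Trf, the iron carrier made by oligodendrocytes, was at 91.9 and 151 FPKM (0.71). In the glycolysis and hypoxia list, 4 of 28 were higher (14.3%, against 8.54% of all genes), and 3 of the 27 listed in both libraries. They included the leukocyte hexokinase gene Hk3 (0.218 and 2.49 FPKM, 3.03) and Hk2, which was not listed in sham and at 2.81 FPKM at day 3. The glycolytic enzyme genes Aldoa (739.96 and 562 FPKM, -0.40) and Pgk1 (191 and 196, 0.04) and the hypoxia-induced Vegfa (21.2 and 16.3, -0.37) stayed within the threshold. Growth factor and regeneration genes were split, with Igf1 (0.833 and 2.84 FPKM, 1.66), Fgf2 (1.07 and 3.55, 1.64) and the binding protein gene Igfbp2 (36.9 and 94.3, 1.35) higher and Gap43, the marker of growing axons, level at 117 and 111 FPKM (-0.08). Ribosomal protein genes (60 compared, median 0.14) and nuclear-encoded respiratory chain genes (73 compared, median -0.10) stayed near sham, apart from single genes whose levels jumped between libraries. The ATP synthase gene Atp5e, for example, was at 14.8 FPKM in sham and 14.3 at day 28 but between 115 and 179.5 in the other 4 libraries (log2 ratio at day 3 2.95).

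Several of the largest falls were of that kind. Ppia (cyclophilin A, a prolyl isomerase of all cells) was at 498 FPKM in sham and 62.2 at day 3 (-3.0), and at 601, 121, 713 and 131 at days 1, 7, 14 and 28. The ribosomal protein gene Rpl41 was at 179 FPKM in sham and not listed at day 3, and was at 0.491, 154, 11.1 and 12.1 at days 1, 7, 14 and 28. The synaptic active zone gene Rims1 was at 29.3 FPKM in sham and 16.5 and 12.4 at days 1 and 7 and was not listed in the other libraries, and the Ras effector gene Rin1, at 9.32 FPKM in sham and between 8.69 and 10.4 in the 4 other libraries, was not listed at day 3 alone. The cause of such jumps was not tested. Uchl1, the neuronal ubiquitin hydrolase gene, was at 316 FPKM in sham and 132 at day 3 (-1.26), but its summed starts alone gave a log2 ratio of 3.26, the opposite direction. Among genes whose day 3 value was the lowest of the 6 libraries, Dph2, an enzyme of diphthamide synthesis, was at 1.84 FPKM in sham, 0.0376 at day 3 and between 1.99 and 2.37 in the other libraries (-3.82), and the protease gene Tmprss7 was at 1.22, 0.0638 and between 0.774 and 1.07 FPKM (-3.01). Cd46, a complement regulator, was at 2.24 FPKM in sham and 0.0181 at day 3 (-4.31), and between 0.214 and 0.774 in the other post-stroke libraries.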

How the data were processed

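Each group was 1 strand-specific, poly(A)-selected library from the pooled RNA of 3 mice, with reads of 150 bases. The files deposited by the authors hold transcript events with an FPKM each and no counts, so that per-library depth is unknown and no interval or test was possible. The submitters' processing notes name Trimmomatic 0.30, HISAT2 2.0.1, HTSeq 0.6.1 and the mm10 build, and the program that called the events is not given in the sources used here. A gene's value was computed with Python 3.11.15 and pandas 2.3.3 as the largest of its summed transcription starts, its summed transcription ends and any single event. Genes with at least 1 FPKM in sham or at day 3 were compared as log2((day 3 + 0.1)/(sham + 0.1)), with 1 as the threshold. A gene without an event in a library is called not listed and entered as 0, and no ratio is printed for it. Gene spans came from GENCODE M21 and promoters from RefSeq. Genes were named by rank: the 12 largest and 12 smallest ratios, the 12 highest values listed in 1 library only, the 10 largest differences in FPKM in each direction, and in each list the 4 largest and 2 smallest ratios, unless under 0.5 of the value lay inside the gene's span. Other genes were added for their role after their values were seen. The gene lists, the comparison and the motifs were chosen with earlier results of these data known. The scripts were tested on simulated data. Some named genes are not reported here.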

Additional observations from a re-analysis of the deposited data

Results flagged for a closer look

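The loci to which the files give no gene identifier were left out of the comparison. Of the 879 such loci in any library, 141 had an FPKM of at least 1 in sham or at day 3. Among these, 24 (17%) were higher at day 3 by a log2 ratio of at least 1 and 22 (15.6%) were lower, against 8.54% and 2.53% of the genes compared. Of the 24, 17 were not listed in sham, and of the 22, 19 were not listed at day 3. These could not but be called, and they made up most of both counts. Among the genes compared, 185 of the 1029 higher and 57 of the 305 lower were of this kind, so the shares of loci and genes are not alike. The loci are given here because no comparison used them, and no explanation was tested.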

How the results depend on the processing

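With 1 pooled library a group, no replicate could be left out, and the depth behind each FPKM is unknown, which limits every gene at a few FPKM most. Against 1029 higher and 305 lower genes, adding 1 FPKM in place of 0.1 gave 622 and 174, a limit of 5 FPKM 336 and 118 (8070 genes compared), no limit 1903 and 743 (14297 genes), and a log2 threshold of 2 gave 359 and 84. Requiring starts and ends both to pass, a choice made after seeing the data, gave 489 and 103. The other 26 counts stayed within 1.5 times those reported, and higher genes made up 71.9% to 81.0% of the calls under the settings other than the last. Among lists, 12 had a median of at least 1, and between 8 (1 FPKM added) and 13 did under the alternatives. With 1 FPKM added, the matrix (0.93), cytokine (0.94), lysosome (0.98) and interferon-stimulated (0.67) lists fell under 1. The lysosome list also did with summed starts (0.95) and with the median log2 ratio set to 0 (0.99). With a limit of 5 FPKM, the chemokine list fell to a median of 0.07. The genes that changed direction after a call were, with 1 kind of event used alone, Uchl1 (3.26 from summed starts) and Kcnk4 (1.02 from summed ends). Of 1657 values of named genes under the alternatives, 1619 kept their sign and their side of the threshold, and 17 of the 36 others, beside those 2 genes, came from adding 1 FPKM. From summed starts, Ctsd (0.20) and Notch3 (0.76) lost their call, and Reln (1.15), Il18 (0.43), Vegfa (0.11) and Nid2 (-0.57) had the opposite sign. From summed ends, Racgap1 (0.78) and Cp (0.84) lost their call, and Mbp (1.82), Eef1a1 (1.11) and Aldoa (-2.33) lay past the threshold. Inside annotated spans only, Fgf2 (0.69) and Notch3 (0.89) lost theirs. Scaling to the upper quartile put Apoe at 1.02. The cause of these changes was not tested.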

Other observations

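Several genes not listed in sham stood out by their levels across the libraries. Adam8, a membrane protease of leukocytes, was at 2.03, 7.33, 6.85, 1.82 and 0.920 FPKM at days 1, 3, 7, 14 and 28, so that days 3 and 7 lay close together above the others. Pmch, the precursor of melanin-concentrating hormone, which is made mainly in the hypothalamus, was at 26.2 FPKM at day 1 and 5.13 at day 3, followed by 7.74 and 3.48 at days 7 and 14, and was not listed at day 28. Ifi30, named for the lysosomal thiol reductase of antigen-presenting cells but annotated here as a processed transcript, was listed at day 3 alone, with 5.89 FPKM. Nrbf2, a subunit of an autophagy complex, was at 9.82 FPKM at day 1 and 5.53 at day 3 and not listed at day 14. Lrrc47 was at 4.81 FPKM at day 3 and 3.53 at day 28, but at 0.230 and 0.231 at days 1 and 7, and was not listed at day 14. Ifi30 and Lrrc47 thus jumped between libraries, and the cause was not tested.

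Ptgds, the prostaglandin D synthase of the meninges, choroid plexus and oligodendrocytes, was at 1075 FPKM in sham and 711 at day 3, a log2 ratio of -0.60 that stayed within the threshold. Day 3 was the lowest of the 6 libraries for this gene, the others lying between 1044 and 1969 FPKM.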
